A study of Mus musculus with 6 samples.

Results

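The genes described are 9 genes of the complement system in bone marrow-derived mast cells (BMMCs): C4a and C4b, C3, Cfp, Cd55, Cd55b, Cd59a, Cd46 and Cr1l. They were found by symbol among the 18894 genes with reads, and they were chosen with the strain comparison of these same libraries known. Their strain differences are therefore given as a description, without a test. BMMCs were grown from the marrow of naive wild type mice of either the BALB/c or the C57BL/6 strain. The medium held stem cell factor, TGF-β1, IL-9 and IL-3, the RNA was taken on day 20, and no stimulation is stated for these samples. The study sequenced these cells to compare mast cells of strains that it used in a model of airway allergy. There were 3 libraries per strain, S9 to S11 from BALB/c and S12 to S14 from C57BL/6. The paper calls them biological replicates, and the age and sex of the marrow donors are not given in the sources used here.

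Complement is a cascade of plasma and membrane proteins that marks surfaces for uptake and lysis. C4, cleaved in the classical and lectin pathways, and C3, at which all pathways meet, leave fragments bound to a surface, where they form the enzymes that cleave further C3. Properdin (Cfp) stabilises the alternative pathway enzyme, whereas host cells carry regulators that take these enzymes apart (Cd55 and its copy Cd55b), serve as cofactors for the cleavage of C3b and C4b (Cd46), do both (Cr1l, the rodent regulator Crry) or block the terminal pore (Cd59a). Mast cells are known to respond to the small fragments C3a and C5a through receptors on their surface.

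Between 28273365 and 37100869 estimated reads per library were assigned to genes. Reads are given as CPM, which scales them to the corrected library size, and levels of different genes are compared only as TPM, which is also scaled to transcript length. All 10 mast cell markers examined had reads enough for a test, and their summed level ranged from 30590 to 33680 CPM in BALB/c and from 33820 to 35850 CPM in C57BL/6. Cpa3 and Cma1 were the largest parts of the sum, which therefore does not give the level of each marker. Kit, Fcer1a and Cpa3 were high in every library, whereas Hdc was the lowest of the 10, with 66 to 202 estimated reads per library. In RNA of whole cultures, fewer cells of a type and less RNA per cell cannot be told apart. Reads of both strains were assigned to the same set of transcripts, and the effect of sequence differences between the strains on the assignment was not tested.

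C4a and C4b are neighbouring copies on the minus strand of chromosome 17. In GRCm39, C4b lies at chr17:34947354-34962912 and C4a at chr17:35028069-35042440. The annotation of GENCODE types both as protein coding, while the RefSeq gene table types C4a as a transcribed pseudogene. Their longest coding transcripts, of 5369 and 5495 bases, were identical at 96.2% of the positions aligned without a gap and differed at 205. Of the 31-base words in the transcripts of C4a, 43.4% also occurred in C4b, so that a read from such a stretch fits both genes. The 100 coding bases of exon 11 in which the copies differ most, at 15 positions, are shown because reads from there can be told apart. Capitals mark the differing bases, and the stretches lie at chr17:35038839-35038938 and chr17:34959318-34959417 on the minus strand of GRCm39.
C4a: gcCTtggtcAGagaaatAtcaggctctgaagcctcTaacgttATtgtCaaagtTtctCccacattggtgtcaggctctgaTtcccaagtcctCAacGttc
C4b: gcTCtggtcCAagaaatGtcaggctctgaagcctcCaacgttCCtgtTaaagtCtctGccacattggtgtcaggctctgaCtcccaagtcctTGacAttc

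C4 transcripts were scarce in all libraries and were lower in C57BL/6. C4a had 79.9, 70.4 and 89.6 estimated reads in BALB/c, against 32, 25 and 19 in C57BL/6. The level of C4a was 2.42 ± 0.0783 CPM (SD, n = 3) in BALB/c and 0.821 ± 0.249 CPM (SD, n = 3) in C57BL/6, with no overlap between the libraries. The fitted log2 fold change of C4a, C57BL/6 over BALB/c, was −1.57 ± 0.24 (SE), a 2.97-fold lower level in C57BL/6. S14 held the least C4a, and without this library the log2 fold change was −1.32.

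C4b, the copy that encodes the C4 of mouse plasma, had 25.3, 21.6 and 23.4 estimated reads in BALB/c, against 0 in each C57BL/6 library. It passed the filter on low counts only through the BALB/c libraries. A count of 0 allows up to 3 reads, which is between 0.0848 and 0.111 CPM in C57BL/6, so C4b was at least 7.39-fold lower in C57BL/6 with that floor in each library. Floors cover counting error only.

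The split between the copies differed between the strains. C4b took 24.1%, 23.4% and 20.7% of the C4 reads in the BALB/c libraries, and every C4 read of the C57BL/6 libraries was assigned to C4a. Salmon, the program that assigned the reads, gives each copy a fraction of a read that fits both. The estimated reads of C4a and C4b were fractional in BALB/c and whole in C57BL/6. The sum of the pair does not depend on this split. The sum was 105.2, 92 and 113 reads in BALB/c, against 32, 25 and 19 in C57BL/6, or 3.13 ± 0.154 and 0.821 ± 0.249 CPM (SD, n = 3 each). BALB/c libraries were all higher, and the sum differed by −1.94 ± 0.23 (SE) on the log2 scale, 3.84-fold lower in C57BL/6. The value rested little on any one library, since leaving out each in turn gave −2.12 to −1.69.

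**Figure D1:**
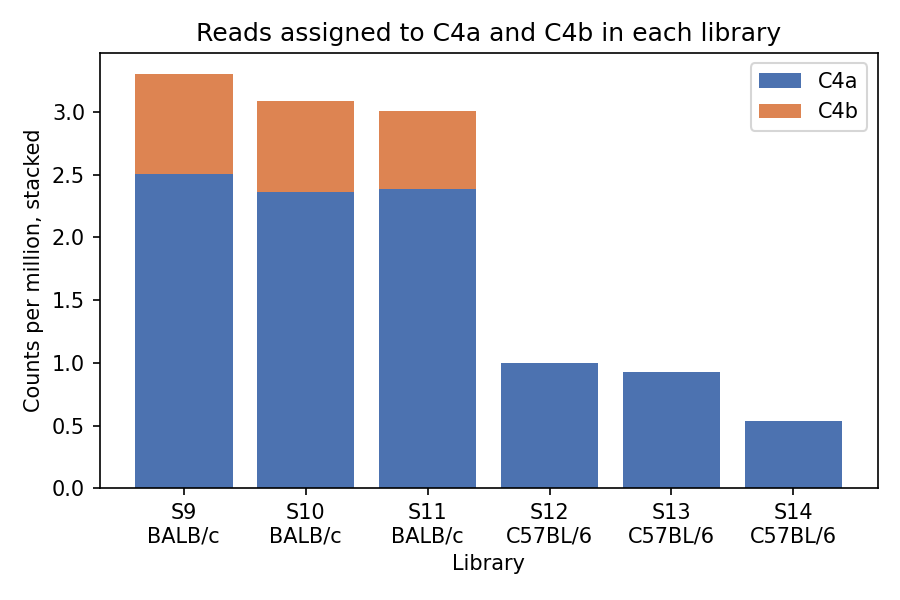
Stacked bars give the CPM (vertical axis, starting at 0) assigned to C4a and C4b in each library, with 3 libraries per strain. The BALB/c bars reach between 3.01 and 3.30 CPM with a C4b part, and the C57BL/6 bars reach between 0.537 and 1.001 CPM with C4a alone.

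C3 (chr17:57510964-57535155, minus strand, GRCm39), the central component, was at the limit of detection. It had 2, 2 and 3 reads in BALB/c, against 1, 0 and 2 in C57BL/6. All of these are at or under the floor of 3 reads, so no fold change is given and the gene did not enter the test. A strain difference in C3 was not detectable at this depth.

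Cfp (chrX:20791688-20797794, minus strand, GRCm39), the only positive regulator of the cascade among the 9 genes, was higher in C57BL/6. Its level was 3.91, 4.26 and 4.50 CPM in BALB/c, against 8.31, 7.505 and 8.60 CPM in C57BL/6, without overlap. The log2 fold change was 0.94 ± 0.10 (SE), which is 1.92-fold and so just under the 2-fold criterion used for calls. Leaving out single libraries gave values from 0.89 without S9 to 1.001 without S13, and other scalings gave lower ones, 0.80 with plain library size, 0.75 on log2(TPM + 0.1) and 0.65 on log2(TPM + 1). Cfp has no 31-base word in common with another gene, and the reads of its single listed transcript ranged from 124.6 to 304.5.

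Cd55 and Cd55b encode decay-accelerating factor and its copy, and they lie side by side on the minus strand of chromosome 1, at chr1:130366469-130390926 and chr1:130316263-130350815 in GRCm39. Of the words of Cd55b, 29.8% also occurred in Cd55, and of the words of Cd55, 9.82% occurred in Cd55b. Promoters of RefSeq (GRCm38.p6, 250 bases before to 50 after the start) were found for 7 of the 9 genes. The entries of Cd55 (chr1:130462695-130462994) and Cd55b (chr1:130422994-130423293), both on the minus strand, are shown because both copies were higher in C57BL/6 while their levels lay far apart. Capitals mark matches on either strand to 5 motifs: GATAA (bound by GATA factors), TATAAA (the core promoter box), CCGCCC (bound by factors of the Sp family), CCAAT (bound by NF-Y) and TGACGTCA (bound by factors of the CREB family).
Cd55: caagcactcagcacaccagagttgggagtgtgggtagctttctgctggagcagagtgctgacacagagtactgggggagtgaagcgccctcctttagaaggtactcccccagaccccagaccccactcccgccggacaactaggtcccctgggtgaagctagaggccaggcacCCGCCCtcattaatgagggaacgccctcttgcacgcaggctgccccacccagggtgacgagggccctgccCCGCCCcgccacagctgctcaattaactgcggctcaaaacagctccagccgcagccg
Cd55b: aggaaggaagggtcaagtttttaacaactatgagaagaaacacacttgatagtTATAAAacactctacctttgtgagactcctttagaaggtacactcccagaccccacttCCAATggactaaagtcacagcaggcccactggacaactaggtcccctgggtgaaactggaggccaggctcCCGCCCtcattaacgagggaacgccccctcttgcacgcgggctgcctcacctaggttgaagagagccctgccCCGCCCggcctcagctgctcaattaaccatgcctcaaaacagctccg

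The promoters could be aligned over 221 columns, of which 176 (79.6%) were identical. Both hold CCGCCC at 2 places, a motif present in 35.7% of the 32851 promoters of this length. Cd55b also holds 1 TATAAA, present in 13.6% of promoters, and 1 CCAAT, present in 37.4%. Among the other promoters, that of C3 holds 1 TATAAA and that of Cd46 holds 1 CCAAT, and those of Cfp, Cd59a and Cr1l hold none of the 5 motifs. GATAA (25.4% of promoters) and TGACGTCA (1.79%) had no match in any of the 7. A match is a string of letters in this window and was not examined for binding.

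Cd55 was the most abundant of the 9 genes in C57BL/6. It measured 152.8, 160.4 and 135.4 CPM in BALB/c, against 216.6, 219.3 and 206.9 CPM in C57BL/6. All C57BL/6 libraries were above all BALB/c libraries, and the log2 fold change was 0.52 ± 0.06 (SE), or 1.43-fold higher in C57BL/6.

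Cd55b had a log2 fold change near that of Cfp at a lower level. It had 1.67, 1.25 and 1.17 CPM in BALB/c, against 2.79, 2.65 and 2.72 CPM in C57BL/6. The strains did not overlap, and S9 was the highest of the BALB/c libraries. The log2 fold change was 1.003 ± 0.181 (SE). This lies at the 2-fold criterion, and leaving out single libraries gave values on both sides of it, from 0.90 without S11 to 1.17 without S9. It was 0.86 with plain library size, 0.80 on log2(TPM + 0.1) and 0.55 on log2(TPM + 1). Cd55b took from 0.770% to 1.08% of the reads of the pair in BALB/c and from 1.19% to 1.30% in C57BL/6. For the sum of the pair the log2 fold change was 0.52 ± 0.06 (SE), from 150.9 ± 12.9 CPM (SD, n = 3) in BALB/c to 217 ± 6.52 CPM (SD, n = 3) in C57BL/6.

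Cd59a, the inhibitor of the terminal pore (chr2:103926132-103947029, plus strand, GRCm39), had the largest fold change of those of the 9 genes with reads in both strains. It had 10.6, 16 and 13.8 estimated reads in BALB/c, against 347.1, 265.2 and 330.0 in C57BL/6. The mean was 0.412 ± 0.1095 CPM (SD, n = 3) in BALB/c, against 9.995 ± 0.788 CPM (SD, n = 3) in C57BL/6. The libraries lay far apart, and the log2 fold change was 4.58 ± 0.17 (SE), or 23.9-fold. On log2(TPM + 0.1) it was 4.11 and on log2(TPM + 1), which understates low levels, 2.70. The RefSeq promoter of Cd59a (GRCm38.p6, chr2:104095551-104095850, plus strand) is shown for this difference and has no match to the motifs above.
Cd59a: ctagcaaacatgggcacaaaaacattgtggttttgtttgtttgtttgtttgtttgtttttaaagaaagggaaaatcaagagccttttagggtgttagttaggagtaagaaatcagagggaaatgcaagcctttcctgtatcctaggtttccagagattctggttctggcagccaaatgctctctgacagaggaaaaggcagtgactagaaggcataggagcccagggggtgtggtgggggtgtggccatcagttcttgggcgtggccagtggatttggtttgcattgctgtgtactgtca

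The copy next to Cd59a, Cd59b, shares 8.93% of the words of Cd59a. It had 0.236, 0.347 and 0.540 CPM in BALB/c, against 0.680, 0.483 and 0.771 CPM in C57BL/6. These ranges overlap, and the log2 fold change was 0.77 ± 0.35 (SE). It was not called in the comparison across all genes, and without S11 it was called, with a log2 fold change of 1.14. Cd59b reached the filter level in all C57BL/6 libraries but in 2 of the 3 of BALB/c, so the filter bears on whether it could be called.

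Cd46 and Cr1l, next to each other on the minus strand of chromosome 1 (chr1:194719134-194774561 and chr1:194777603-194813894 in GRCm39), differed least. Cd46 had between 12.1 and 21.9 estimated reads in all libraries, with 0.513 ± 0.144 CPM (SD, n = 3) in BALB/c and 0.610 ± 0.137 CPM (SD, n = 3) in C57BL/6. The libraries overlapped, and the log2 fold change was 0.23 ± 0.32 (SE), with a direction that turned under some alternatives (from −0.09 to 0.44).

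Cr1l was abundant in both strains, with 91.3, 88.8 and 89.7 CPM in BALB/c, against 99.99, 103.4 and 94.8 CPM in C57BL/6. The log2 fold change of 0.14 ± 0.04 (SE) depends on the scaling, and it was −0.03 on log2(TPM + 1) and under 0.01 in size with plain library size. In TPM the libraries overlapped, with 85.6 ± 2.25 TPM (SD, n = 3) in BALB/c and 83.6 ± 3.06 TPM (SD, n = 3) in C57BL/6.

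Per transcript length, the membrane regulators Cd55 and Cr1l held between 95.8% and 96.1% of the summed TPM of the 9 genes in BALB/c and between 91.0% and 91.9% in C57BL/6. In BALB/c, Cr1l (85.6 TPM) and Cd55 (84.4 TPM) led without being separable by their libraries. They were followed by Cfp (4.10 TPM), Cd55b (1.51 TPM) and C4a (0.658 TPM). Cd59a (0.372 TPM) overlapped Cd46 (0.236 TPM), Cd46 overlapped C4b (0.193 TPM), and C3 (0.0250 TPM) came last. In C57BL/6 the order was Cd55 (106.1 TPM), Cr1l (83.6 TPM), Cd59a (7.95 TPM), Cfp (6.99 TPM) and Cd55b (2.66 TPM), each with libraries apart from the next. Cd46 (0.206 TPM) overlapped C4a (0.197 TPM), and C3 and C4b were at or near 0. Cd59a thus stood between C4a and Cd46 in BALB/c and above Cfp in C57BL/6.

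**Figure D2:**
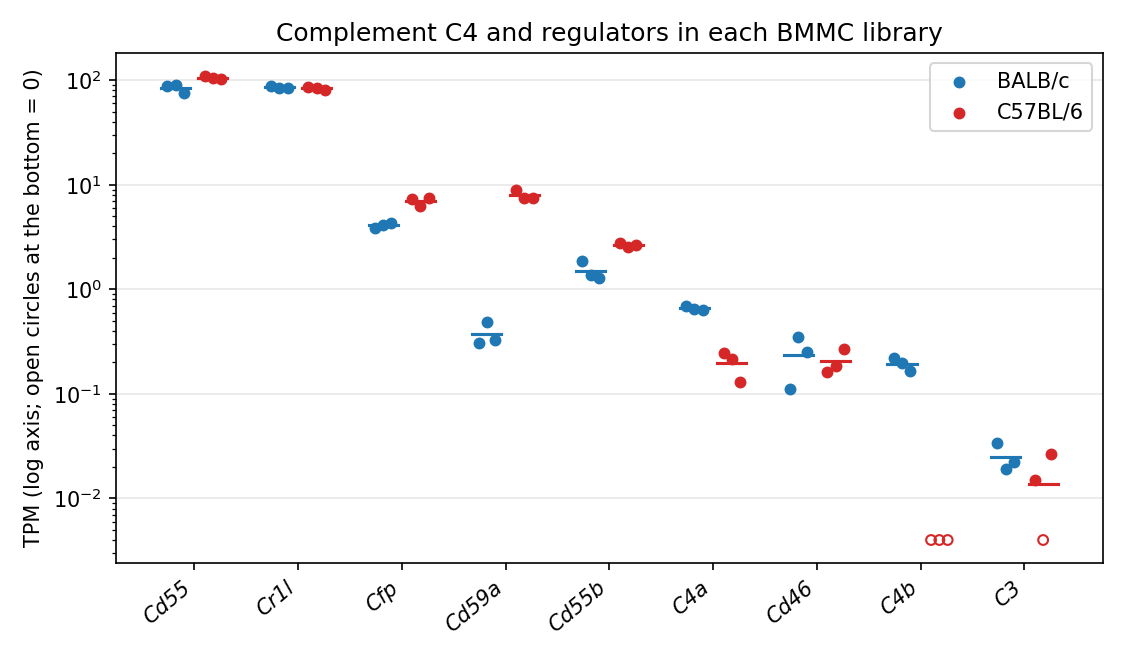
Each point is the deposited TPM of 1 gene in 1 library on a log axis, with 3 libraries per strain, and short lines are strain means. Open circles at the bottom stand for 0, Cd55 and Cr1l lie near 100 TPM in both strains, and of the genes with reads in both strains Cd59a has the points farthest apart, at 0.372 and 7.95 TPM on average.

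Of the 9 genes, 8 entered the comparison across 12461 genes, in which a gene was called at an adjusted p under 0.05 by the quasi-likelihood test of edgeR, adjusted after Benjamini and Hochberg and a fold change above 2. Over all genes tested, 13.3% were called, 7.73% higher and 5.54% lower in C57BL/6. The 9 genes were chosen on this contrast, so no calls are counted among them. Libraries of the strains did not overlap in CPM for 7 of the 8 that entered, 5 higher and 2 lower in C57BL/6, which is a description for the same reason, and C4b entered through its BALB/c libraries only. The same held for 61.9% of all genes tested.

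The annotation lists 36 deposited transcripts for the 9 genes. A transcript of 2534 bases carried 92.1% ± 0.528 (SD, n = 3) of the TPM of Cd55 in BALB/c and 91.3% ± 0.346 (SD, n = 3) in C57BL/6. The second, of 4259 bases, carried 6.63% ± 0.512 (SD, n = 3) and 7.26% ± 0.237 (SD, n = 3). For Cr1l, transcripts of 1674, 1696 and 1673 bases carried 84.7%, 12.2% and 3.03% in BALB/c, against 85.04%, 10.03% and 4.93% in C57BL/6. The leading transcripts of Cd55 and Cr1l were the same in all libraries. All reads of Cd55b were on 1 of its 6 listed transcripts, a predicted one of 1457 bases, while its curated transcripts had 0 reads. Whether some of these reads came from Cd55 was not tested. All reads of C4b were on 1 of 4. Cd59a rested on 1 transcript in all libraries but S13, where it carried 92.4%. The split of Cd46 over its 10 transcripts rested on 12.1 to 21.9 reads and varied widely. The longest, of 5099 bases, led in S9, S12 and S13 and took from 31.8% to 100% of the TPM of Cd46. RefSeq types it as a predicted non-coding transcript. The curated coding transcript, of 1887 bases, had 0 reads in S9 and S13 and at most 7.70 in the other libraries. Cd46 also overlaps A330023F24Rik, Mir29b-2, Mir29c and Gm37366 on the other strand.

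**Figure D3:**
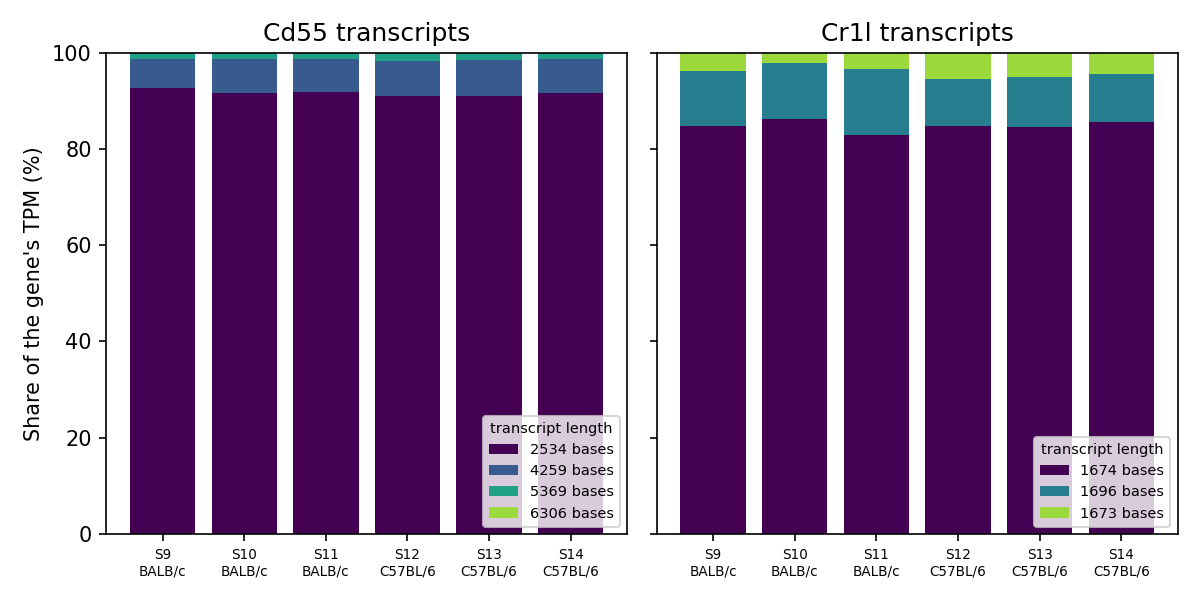
Stacked bars give the share of the TPM of Cd55 (left) and Cr1l (right) held by each deposited transcript, named by its length, in each library. The leading transcript holds between 91.0% and 92.7% of Cd55 and between 83.0% and 86.4% of Cr1l, with little difference between the strains.

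Of 49 other complement genes listed, 24 had reads and 25 were at 0 in all libraries. The test could be made for 11, of which 7 reached the level of the filter on low counts, 0.314 CPM by plain library size, in all libraries of both strains. Of these 7, 5 were higher in C57BL/6, 0 were lower and 2 were not called, beside the 13.3% called, 7.73% higher and 5.54% lower, of all genes tested. Their median log2 fold change was 1.53, beside −0.01 over all genes tested. The other 4 reached the level in all libraries of only the strain in which they are higher, so the filter bears on whether they could be called, and their values are given without a p. They were C5ar1, C5ar2, Masp2 and Cd59b, the last at the level in 2 of the 3 BALB/c libraries. No gene of the classical pathway (at most 4 reads per library), the alternative pathway (at most 1), the terminal components (at most 13) or the soluble regulators (at most 10) passed the filter. Of the lectin pathway, Masp2 alone could be tested, and the other genes of that list had at most 7 reads per library.

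The receptors for the small fragments C3a and C5a were higher in C57BL/6. C3ar1, the receptor for C3a, had 25.9, 19.8 and 19.3 CPM in BALB/c, against 68.1, 70.1 and 67.9 CPM in C57BL/6. Its log2 fold change was 1.67 ± 0.10 (SE), with an adjusted p of 1.22e-06 by edgeR's quasi-likelihood test. C5ar2, the second receptor for C5a, had 3, 3.51 and 3.78 estimated reads in BALB/c and 157.1, 114.2 and 135.0 in C57BL/6. The 10 reads of BALB/c and 406 of C57BL/6 gave a 42.7-fold higher level in C57BL/6, with a 95% Clopper-Pearson interval from 23.0 to 89.7 that covers counting error only. C5ar1, the main C5a receptor, had 0 reads in each BALB/c library and 22, 17 and 21 in C57BL/6. It was at least 6.95-fold higher in C57BL/6 with a floor of 3 reads per library.

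Of the other receptors and membrane regulators, Itgax, Itgb2, Cd93 and Thbd were higher in C57BL/6, while Cd59b, C1qbp and Calr were not called, Vsig4, Cr2 and Csmd1 were at 0, and Susd4 had too few reads for a test. Itgax, the alpha chain of complement receptor 4, rose from 8.08 ± 0.408 CPM to 37.5 ± 1.07 CPM (SD, n = 3 each), a log2 fold change of 2.21 ± 0.06 (SE, adjusted p = 1.32e-08 by edgeR). Itgb2, the beta chain it shares with complement receptor 3, was at 0.488 ± 0.0570 CPM and 1.11 ± 0.0506 CPM (SD, n = 3 each), with a log2 fold change of 1.18 ± 0.23 (SE, adjusted p = 0.00234 by edgeR). On log2(TPM + 0.1) the log2 fold change of Itgb2 was 0.795 and on log2(TPM + 1) 0.28, short of 2-fold. Itgam, the alpha chain of complement receptor 3, had at most 5 reads in a library and was not tested. Cd93, a surface glycoprotein once described as a C1q receptor, rose from 218.8 to 631.7 CPM (log2 fold change 1.53 ± 0.08 SE, adjusted p = 5.02e-07 by edgeR). Thbd, thrombomodulin, which also restrains complement, rose from 1.58 to 8.84 CPM (log2 fold change 2.50 ± 0.18 SE, adjusted p = 3.70e-06 by edgeR). C1qbp and Calr, which encode abundant C1q-binding proteins with other main functions in the cell, were not called, with log2 fold changes of −0.10 and −0.07 and adjusted p of 0.0940 and 0.172 by edgeR.

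Masp2, the serine protease of the lectin pathway that cleaves C4, reached the filter level in BALB/c only. It had 31.1, 22 and 51 estimated reads in BALB/c, against 4, 1 and 0 in C57BL/6, which is 104 against 5 in all. These gave a 19.8-fold lower level in C57BL/6, with a 95% Clopper-Pearson interval from 8.21 to 62.2 that covers counting error only. The fitted log2 fold change of −4.19 rests on those 5 reads, and it was −5.70 without S12, −3.55 without S14 and −5.30 with an offset for transcript length. Which transcripts of Masp2 held its reads in each strain was not examined. Masp2 overlaps Tardbp on the other strand. The library kit marks strand, and the strand setting of the counting is not given in the sources used here.

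**Figure D4:**
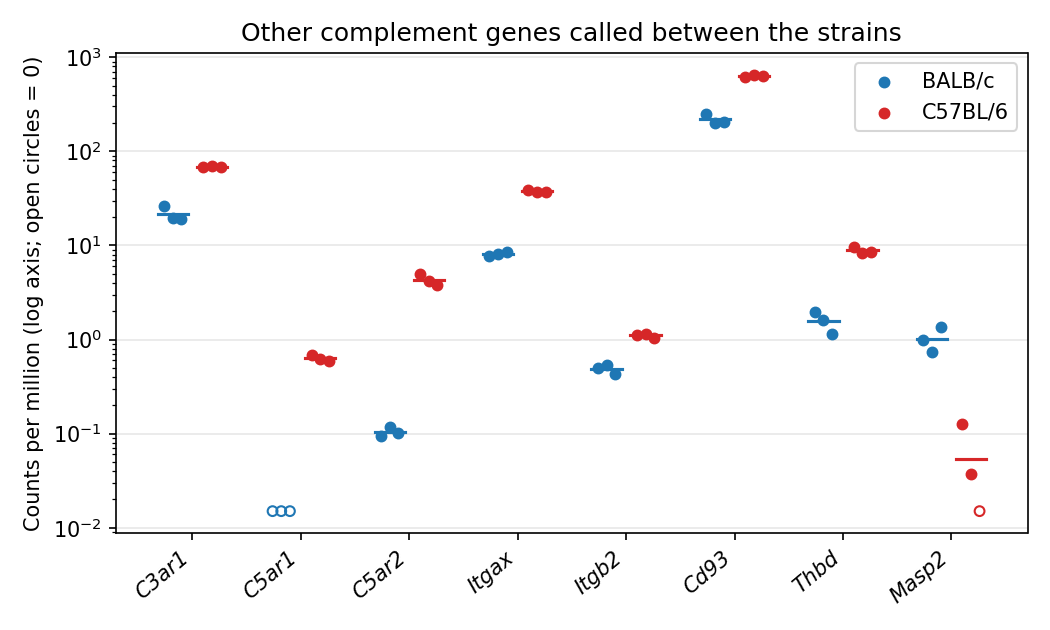
Points are the CPM (log axis) in each library of the 8 other complement genes past both thresholds, of which C5ar1, C5ar2 and Masp2 reached the filter level in 1 strain only, lines are strain means and open circles stand for 0. The points of 7 genes are higher in all 3 C57BL/6 libraries, and those of Masp2 are lower.

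**Figure D5:**
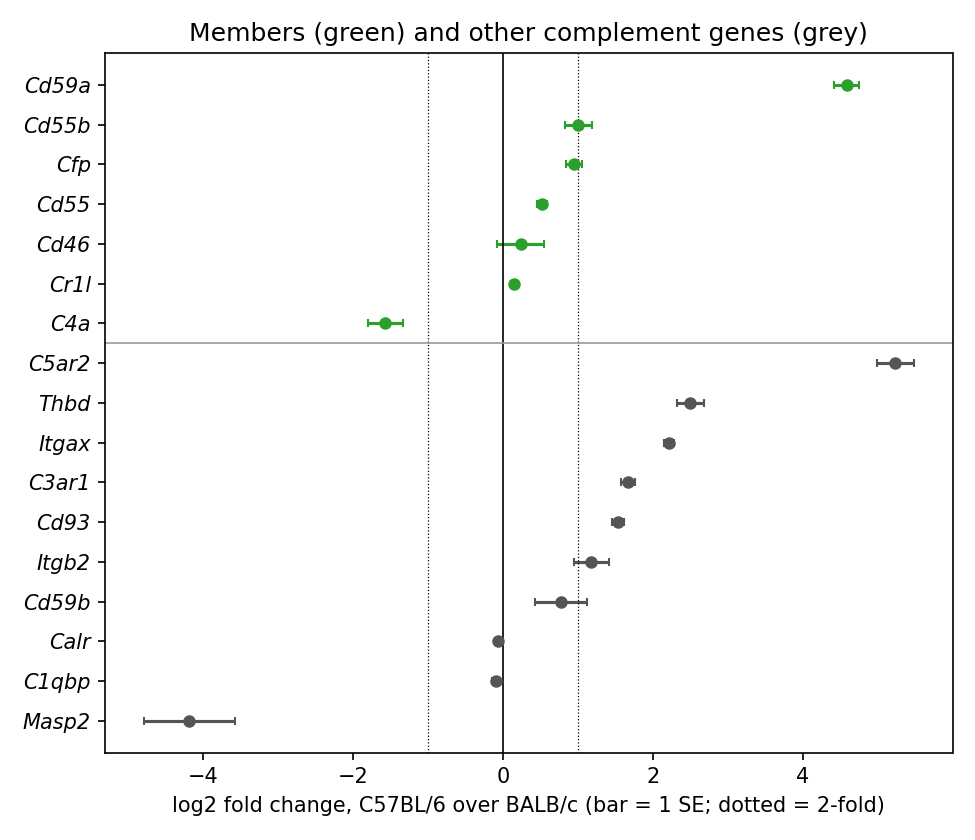
Points are fitted log2 fold changes, C57BL/6 over BALB/c, with bars of 1 SE, for the described genes (green, upper part) and the other complement genes tested (grey, lower part). Dotted lines mark 2-fold, C4b and C5ar1 are left out because they had 0 reads in 1 strain, and values run from −4.19 for Masp2 to 5.23 for C5ar2.

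Some markers of other cells were also higher in C57BL/6. Of 8 macrophage markers 2 could be tested. Cd68 was higher (log2 fold change 2.01, adjusted p = 3.54e-05 by edgeR). Adgre1 reached the filter level in all C57BL/6 but not all BALB/c libraries, with 0.309 ± 0.271 CPM and 9.92 ± 0.407 CPM (SD, n = 3 each), while C1qa, C1qb, C1qc and Csf1r were at 0 in all libraries. The summed level of the list ranged from 0.705 to 1.64 CPM in BALB/c and from 13.4 to 13.9 CPM in C57BL/6. The summed level of 8 basophil markers ranged from 405.5 to 417.8 CPM in BALB/c and from 512.3 to 523.4 CPM in C57BL/6. Of the 5 that reached the filter level in all libraries, 1 (Mcpt8) was called higher, beside the 7.73% of all genes tested. Prss34, Cebpa and Ccl9 reached it in all libraries only in C57BL/6, with means of 0.118, 0.104 and 0.224 CPM in BALB/c and 6.70, 9.70 and 10.8 CPM in C57BL/6. Of the other 4, Il18r1 was lower (log2 fold change −0.54, adjusted p = 0.00415 by edgeR, short of 2-fold) and Ms4a3 was higher (0.99, adjusted p = 0.00240 by edgeR, also short of 2-fold), while Itga2 had 0.15 and Cd200r3 −0.07. Of 10 mast cell markers, all tested, 2 (Hdc and Tpsb2) were called higher and 0 lower, beside the same 7.73% of all genes, and 7 (70%) had an adjusted p under 0.05 by edgeR, beside 52.9% of all genes. Among these 7 the directions were mixed. Cma1 (log2 fold change −0.43, adjusted p = 0.00107 by edgeR) and Mitf (−0.23, adjusted p = 0.00124 by edgeR) were lower, short of 2-fold, and the rest were higher. Markers of neutrophils, fibroblasts or stromal cells, and B cells had at most 4, 2 and 6 reads per library and could not be tested. Of 6 megakaryocyte or platelet markers, 2 were tested and 0 called, with opposite directions (Itga2b 0.58 and Gp1ba −0.33 on the log2 scale, both with an adjusted p under 0.05 by edgeR). The part of other cells in the differences of Cfp, Cd55, Cd59a and the receptors was not tested.

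No gene next to the C4 copies was called. On either side, Fkbpl, Atf6b, Stk19, Dxo and Skiv2l had log2 fold changes between −0.24 and 0.16, short of 2-fold, although Atf6b (adjusted p = 0.00147), Skiv2l (0.00606) and Dxo (0.0296) passed edgeR's quasi-likelihood test without the fold criterion. Tnxb and Cyp21a1, which lie between or beside the copies, had too few reads for a test. Around the Cd55 copies, Pfkfb2 had a log2 fold change of 0.44 ± 0.05 (SE, adjusted p = 1.40e-04 by edgeR), short of 2-fold. Dars had a log2 fold change of 0.16, Cxcr4 of 0.06 and the predicted gene Gm16083 of 0.42. None of these was called, although Dars passed edgeR's test without the fold criterion (adjusted p = 0.0292).

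Across the 6 libraries, the genes with the pattern most like the summed C4 reads among 12459 compared were Mageh1, Hemk1 and Tspyl3. Their centred log2 CPM differed from that of the C4 sum by a root mean square of 0.112, 0.143 and 0.148. All 3 were lower in C57BL/6, by log2 fold changes of −2.04, −1.99 and −1.79, and like the C4 sum they were lowest in S14. For the summed Cd55 reads near genes were Hic1 (0.0284) and Ski (0.0400), with log2 fold changes of 0.53 and 0.52.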

How the data were processed

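RNA of BMMCs was sequenced with a stranded mRNA kit and paired reads. The authors checked reads with FastQC 0.11.5 and assigned them to transcripts with Salmon 0.8.2, and deposited an estimated count and a TPM value for each of 129698 transcripts per library. The methods name Ensembl transcripts of GRCm39, whereas the deposited tables carry RefSeq accessions and lengths. Accessions without version were matched to symbols with a RefSeq table (GRCm38.p6): 106440 matched, and unmatched ones, with 2.69% to 3.12% of the reads, were left out. For the test, the counts of a gene's transcripts were added up and rounded, and CPM used TMM-corrected library sizes. Strains were compared with edgeR 4.0.16 (quasi-likelihood test, minimum count of 10, Benjamini-Hochberg adjustment; adjusted p under 0.05 and fold change above 2), after the code was tested on simulated data. The p-values measure the spread between these 3 libraries per strain. Shared sequence was counted in words of 31 bases of GENCODE transcripts. Alternatives were DESeq2 1.42.0, other normalizations and filters, a length offset, limma 3.58.1 with TPM on the log2 scale (pseudocount 1 or 0.1), unmatched transcripts kept and each library left out.

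The genes and lists were chosen with earlier results of these data known. Named were the 9 genes, other complement and GPI anchor genes that were called, the C3a and C5a receptors, the 3 genes nearest in pattern to each summed pair, the 3 nearest genes along the chromosome on either side and the cell type markers that moved. Cd59b, Itgam, Vsig4, Cr2, Csmd1, Susd4, C1qbp, Calr, C8g and the markers that were not called were named after their values were seen. A gene that this rule covers is not reported here.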

Additional observations from a re-analysis of the deposited data

How the results depend on the processing

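Of the described genes, Cr1l and Cd46 turned their direction under some of the 17 alternatives, and the others tested, like the other complement genes called, did not under those in which they could be fitted. With log2(TPM + 1), the C4a + C4b difference was −0.63, since the pseudocount exceeds its level. The Cd55 + Cd55b difference was 0.38 with plain library size and 0.34 on log2(TPM + 1) and on log2(TPM + 0.1). These 3 scalings also moved the median of all genes, to −0.15, −0.15 and −0.18, against −0.01. Genes called higher in C57BL/6 numbered 613 with at least 10 reads in every library and 433 on log2(TPM + 1), against 963, and genes called lower numbered 404 and 365, against 690. Higher and lower calls were 838 and 829 with plain library size and 736 and 734 on log2(TPM + 0.1). Of the 11 other complement genes tested, 7 were called higher and 1 lower, beside 7.73% and 5.54% of all genes tested, and C5ar1, C5ar2 and Masp2 among them reached the filter level in 1 strain only. The number called lower was 0 with at least 10 reads in every library, where Masp2 was not tested, and 1 to 2 with a library left out. The second was C8g, called without S9 (log2 fold change −1.65) or without S12 (−2.12). With 4, 12 and 13 reads in BALB/c, against 7, 2 and 2 in C57BL/6, C8g entered these fits through BALB/c libraries only. Those called higher ranged from 5 to 8, the eighth being Cd59b without S11 or Susd4 with no filter. Itgb2 was not called in either limma fit, nor C5ar1 on log2(TPM + 1). No paired analysis was possible because the strains share no replicate numbers. Depth limits C4b, C3, Cd46, C5ar1 and Masp2, whose reads were few.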

Other observations

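Cd55 and Cd59a are held in the membrane by a GPI anchor. Of 23 genes of its synthesis, 22 were in the tables and 21 were tested. By the quasi-likelihood test of edgeR, adjusted after Benjamini and Hochberg, 11 had an unadjusted and 11 (52.4%) an adjusted p under 0.05, beside 52.9% of all genes tested, and 0 of them also reached 2-fold, under the main setting and all 17 alternatives, beside 13.3% of all genes tested that met both thresholds under the main setting. Their median log2 fold change was −0.06, beside −0.01 over all genes tested, and their summed level ranged from 679.3 to 700.0 CPM in BALB/c and from 650.0 to 661.2 CPM in C57BL/6.

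The chains of complement receptor 4 were at unequal levels. Itgax measured 2.97 ± 0.0831 TPM in BALB/c and 12.4 ± 0.719 TPM in C57BL/6, whereas its partner Itgb2 measured 0.265 ± 0.0440 TPM and 0.530 ± 0.0400 TPM (SD, n = 3 each).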
